A study of Homo sapiens with 6 samples.

Results

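Complex I (NADH:ubiquinone oxidoreductase) is the entry point of electrons from NADH into the mitochondrial respiratory chain. Its nuclear subunits and a family of dedicated assembly factors carry gene symbols that begin with NDUF. The genes described here are the protein-coding NDUF symbols, without pseudogenes, that averaged at least 10 normalized counts over the 6 libraries, which gave 46 of the 17202 genes of the table. They comprise 7 core subunits, 29 accessory subunits, 8 NDUFAF assembly factors and the genes NDUFA4 and NDUFA4L2. Those 2 share the NDUF name: NDUFA4 encodes a subunit now assigned to complex IV, and NDUFA4L2 its paralog. The accessory subunit NDUFA6 and the read-through transcript NDUFC2-KCTD14 were in the table but fell under the limit, with means of 4.87 and 6.12 normalized counts.

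Complex I is shaped like an L. The arm in the matrix holds the flavin and the chain of iron-sulfur clusters that carry electrons to ubiquinone, and the arm in the inner membrane pumps protons. The core subunits, conserved from bacteria, do the chemistry: the nuclear ones lie in the matrix arm and the mitochondrial genome encodes those of the membrane arm. Accessory subunits surround this core, and assembly factors help build it without remaining in the finished enzyme.

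The cells were DND41, an established human T-cell acute lymphoblastic leukaemia line. Treated cells received MB1-47, named in the series title as a mitochondrial uncoupler, and the controls received DMSO. Both were cultured for 24 h in serum-supplemented medium, with 3 libraries of total RNA in each group. The MB1-47 dose is labelled 4 mM, and that unit could not be checked. Nothing beyond plating in triplicate says that the replicates were separate cultures, so the tests are made against a spread among libraries that may be partly technical. All libraries come from 1 cell line.

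Values are normalized counts as deposited by the authors. Changes are log2 fold changes of MB1-47 over DMSO on the log2(value + 1) scale ± SE, and "rose" or "fell" is used for an adjusted p under 0.05 in limma's moderated test, with Benjamini-Hochberg adjustment over all 13465 genes tested. Library totals of normalized values lay between 28323706 and 32667526 and are not depths, and the depth of each library is unknown. Libraries correlated at 0.955 to 0.968 within groups and 0.927 to 0.948 between groups on the log2 scale. Of 9 T-lineage markers, 8 were in the table, with summed values of 27090 to 28970 with MB1-47 and 44280 to 48250 with DMSO, and CD3D, CD3E, CD3G, CD7, PTPRC and LCK averaged over 1000 normalized counts in both groups, while CD2 and CD5 averaged under 50. Of the 8, 4 fell and PTPRC rose, at 4178 ± 464 with MB1-47 and 1822 ± 291 with DMSO (SD, n = 3). Of the B-lineage, myeloid, erythroid and fibroblast markers, CD79A averaged 6826 ± 391 normalized counts with MB1-47 and 16526 ± 573 with DMSO (SD, n = 3). The others in the table averaged under 30 in both groups. MS4A1, MPO, CSF1R, HBB and COL1A1 were not in the table. Each value is a normalized count for a whole culture, so fewer transcripts per cell and fewer expressing cells cannot be told apart.

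Transcripts of complex I were mostly lower after MB1-47, and they did not move as a block. Of the 46 genes, 31 fell and 15 did not pass the test, and 22 of the 31 passed in all 18 alternative settings. Over all genes tested, 19.8% fell and 18.3% rose, so the members' share of 67.4% lower lay above the background. None of the 46 rose in limma's test, also not at an unadjusted p under 0.05. The median change was -0.63 over the members and 0.02 over all genes. The 3 MB1-47 libraries lay below all 3 DMSO libraries in 35 members, against 25.2% of all genes, and above them in 2 members, against 24.1%. At least 2-fold falls were called in 10 members, against 5.99% of all genes. When libraries were given equal totals, the all-gene median moved to 0.15 and the split became 3335 genes higher and 2063 lower, in place of 2458 and 2667. Under that scaling 24 members fell and NDUFB5 rose.

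**Figure D1:**
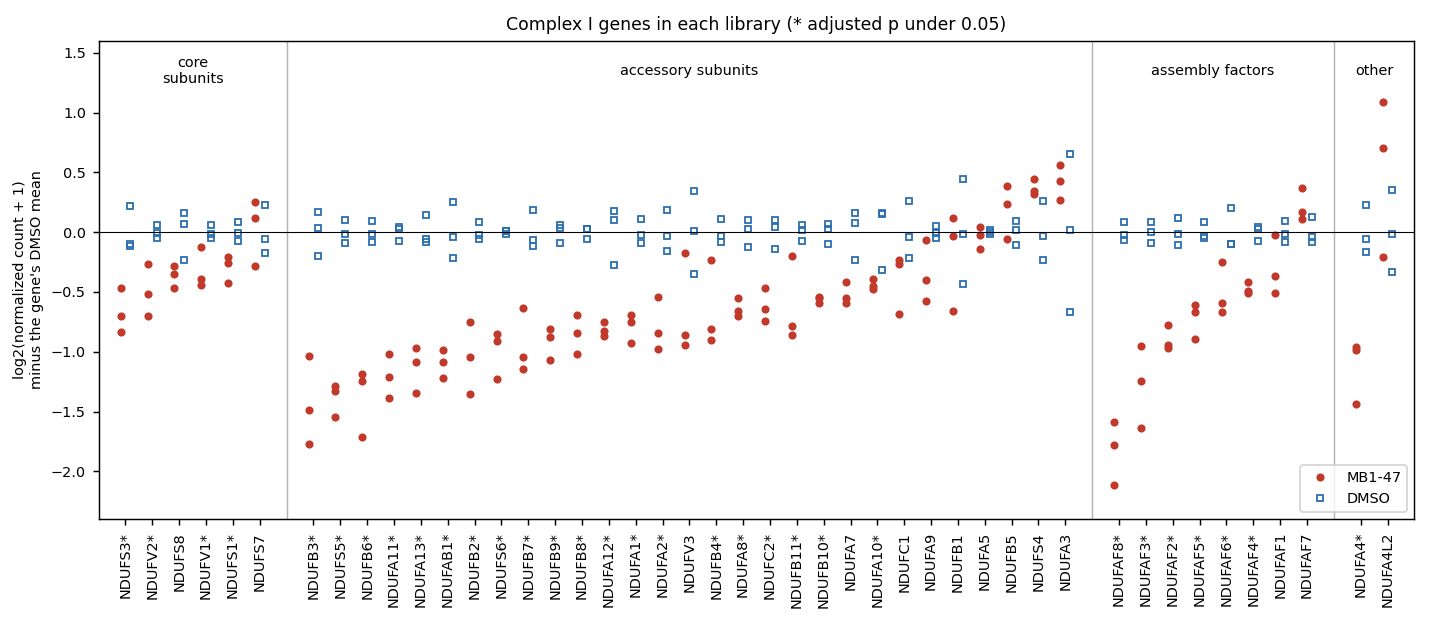
Each column is 1 of the complex I genes reported singly, the y axis is log2(normalized count + 1) minus the gene's mean over the DMSO libraries, filled circles are the 3 MB1-47 libraries and open squares the 3 DMSO libraries; an asterisk marks an adjusted p under 0.05. The 10 deepest falls among the asterisked genes reach 2-fold or more, while NDUFS7, NDUFA5 and NDUFB5 stay near the DMSO level.

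The core subunits had the median nearest to 0. Of 7 nuclear genes, 4 fell and 3 missed the threshold, against 19.8% lower over all genes tested. The median of the 7 was -0.32. The flavin-bearing NDUFV1, where NADH is oxidized, measured 1856, 2239.8 and 1796 normalized counts in the MB1-47 libraries and 2415, 2544 and 2363 in the DMSO libraries. Its change of -0.32 ± 0.11 (adjusted p = 0.0402) missed the threshold when a library other than MB1-47 replicate 2 was left out. Those adjusted p-values were 0.119 without MB1-47 replicate 1, 0.144 without MB1-47 replicate 3, and 0.0723, 0.107 and 0.0759 without DMSO replicates 1, 2 and 3. NDUFV2, its iron-sulfur partner, measured 989.9, 1343 and 1124 with MB1-47 and 1602, 1560.5 and 1679 with DMSO (-0.50 ± 0.13, adjusted p = 0.0110). It missed the threshold with equal library totals (-0.37, adjusted p = 0.0526) and with GC and length trends removed (-0.31, adjusted p = 0.0607). NDUFV1 also missed it in these settings (-0.19, adjusted p = 0.234, and -0.17, adjusted p = 0.184), with TMM or quantile scaling and without limma's trend. The groups did not overlap in either gene.

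NDUFS1 carries further iron-sulfur clusters of the NADH-oxidizing tip. It measured 3105, 3227 and 2775 normalized counts with MB1-47 and 3532, 3708 and 3936 with DMSO, a change of -0.30 ± 0.10 (adjusted p = 0.0295). It missed the threshold without MB1-47 replicate 1 (adjusted p = 0.0554), MB1-47 replicate 3 (0.122), DMSO replicate 2 (0.0604) or DMSO replicate 3 (0.111). NDUFS3, part of an early assembly intermediate, had the largest fall among the core subunits. Its values were 330.5, 388 and 300.1 with MB1-47 and 496, 501 and 624 with DMSO (-0.67 ± 0.18, adjusted p = 0.0122; 0.0583 without DMSO replicate 3). With GC and length trends removed its change was -0.41 (adjusted p = 0.0726) and that of NDUFS1 -0.44 (adjusted p = 0.00482), so the order of these genes turned. With equal library totals NDUFS1 was at -0.17 (adjusted p = 0.208), and without limma's trend its adjusted p was 0.0787. Both genes separated the groups without overlap.

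Other core subunits did not pass. NDUFS7, which carries the terminal iron-sulfur cluster, overlapped fully, at 607, 884 and 805 with MB1-47 and 657, 713 and 869 with DMSO. Its change was 0.03 ± 0.17 (95% interval -0.36 to 0.41, adjusted p = 0.913). NDUFS8, another carrier of iron-sulfur clusters, had 928, 970.1 and 858 with MB1-47 and 1243, 1009 and 1319.7 with DMSO. The groups did not overlap, and the change of -0.37 ± 0.14 had an adjusted p of 0.0537, which became 0.0203 without DMSO replicate 2.

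Among the accessory subunits, 69.0% fell, against 57.1% of the nuclear core subunits, which all lie in the matrix arm. Against 19.8% of all genes tested, 20 of the 29 accessory subunits fell, and 9 of them missed the threshold. Their median was -0.66 and their range -1.43 to 0.42. The 8 largest falls, of 1.99-fold to 2.66-fold, were those of NDUFB3, NDUFS5, NDUFB6, NDUFA11, NDUFA13, NDUFAB1, NDUFB2 and NDUFS6. All 8 passed in each of the 18 alternative settings. None of them overlapped between the groups, and 25.2% of all genes lay below DMSO without overlap. The 8 were picked as the largest falls in these same libraries, so neither statement is separate support.

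NDUFB3, NDUFB6 and NDUFB2 are small subunits of the far end of the membrane arm. NDUFB3 (chromosome 2 from 201071433 to 201085750) measured 181, 248 and 148 normalized counts with MB1-47 and 521, 443 and 571 with DMSO, a 2.66-fold fall (-1.43 ± 0.23, adjusted p = 0.000509). NDUFB6 (chromosome 9 from 32552999 to 32573184) measured 848, 883 and 613 with MB1-47 and 1993, 1904 and 2154 with DMSO (-1.38 ± 0.15, adjusted p = 3.6e-05). NDUFB2 measured 431, 655 and 536 with MB1-47 and 1063, 1084 and 1167 with DMSO (-1.05 ± 0.16, adjusted p = 0.000458). In each of the 3 genes the highest MB1-47 library stayed well under the lowest DMSO library.

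NDUFS5, NDUFA11 and NDUFA13 belong to the part of the membrane arm next to the matrix arm. NDUFS5 (chromosome 1 from 39026318 to 39034636), on the intermembrane-space face, had the smallest adjusted p of all members. It measured 656, 788 and 762 normalized counts with MB1-47 and 2064, 1806 and 1899 with DMSO (-1.39 ± 0.12, adjusted p = 8.72e-06). NDUFA11, a multi-pass membrane subunit, measured 319, 361 and 413 with MB1-47 and 865, 794 and 855 with DMSO (-1.21 ± 0.15, adjusted p = 0.000121). NDUFA13, also known as GRIM-19, measured 163, 178 and 137 with MB1-47 and 328, 334 and 385 with DMSO (-1.13 ± 0.21, adjusted p = 0.00141). In NDUFA11 and NDUFA13 overlapping clone-named genes on the same strand can share reads. With their values added the changes were -1.22 and -0.995. YJEFN3 also overlaps NDUFA13 on the same strand, averaging 178 with MB1-47 and 148 with DMSO, and was not added. Only clone-named genes were added for any member. PTPMT1 overlaps NDUFS3 on the same strand and averaged 440 with MB1-47 and 618 with DMSO. ADCK2 overlaps NDUFB2 in the same way and averaged 1230 with MB1-47 and 1789 with DMSO.

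NDUFAB1, the mitochondrial acyl carrier protein, also serves mitochondrial fatty acid synthesis and is present in both arms. It measured 1790.4, 1969.6 and 2112 normalized counts with MB1-47 and 4053, 3602 and 4978 with DMSO (-1.09 ± 0.13, adjusted p = 5.65e-05). NDUFS6, a zinc-binding subunit added late to the tip of the matrix arm, was 1.99-fold lower. Its values were 427, 557 and 532 with MB1-47 and 990.3, 1012 and 1008 with DMSO (-0.998 ± 0.15, adjusted p = 0.000286). The DMSO libraries agreed closely for this gene (SD 11.7), and the MB1-47 libraries less so (SD 69.0).

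The other 12 accessory subunits that fell changed by -0.94 to -0.44. From the deepest they were NDUFB7, NDUFB9, NDUFB8, NDUFA12, NDUFA1, NDUFA2, NDUFB4, NDUFA8, NDUFC2, NDUFB11, NDUFB10 and NDUFA10. Of these, 3 lost the call when a library was left out. NDUFA10, a kinase-like subunit, had adjusted p-values of 0.0920, 0.0661 and 0.105 without MB1-47 replicates 1, 2 and 3 and 0.136 and 0.152 without DMSO replicates 2 and 3. NDUFB4 had 0.107 and 0.0979 without MB1-47 replicates 1 and 3 and 0.0810, 0.0669 and 0.0632 without DMSO replicates 1, 2 and 3. NDUFB11 had 0.0593 and 0.0669 without MB1-47 replicates 1 and 3 and 0.0588 without DMSO replicate 3. With equal library totals and without limma's trend the same 3 genes missed the threshold, and NDUFA10 also did with TMM or quantile scaling. With GC and length trends removed NDUFB4, NDUFB11 and NDUFB10 missed it, the last at -0.27 (adjusted p = 0.110). NDUFB8 moved from -0.85 to -0.62 (adjusted p = 0.00164) when the clone-named gene AL133352.1, which overlaps it on the same strand, was added.

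Among the 9 accessory subunits that did not pass, NDUFB5, NDUFA9, NDUFA5 and NDUFC1 had the highest mean normalized counts. Those counts are not corrected for transcript length. NDUFB5, in the same distal membrane region as NDUFB3, measured 4922, 3639.6 and 4438 normalized counts with MB1-47 and 4029, 3503 and 3818 with DMSO. The groups overlapped (0.19 ± 0.12, 95% interval -0.07 to 0.44, adjusted p = 0.236), and without MB1-47 replicate 2 the gene passed as higher (0.31, adjusted p = 0.0410). NDUFA5, part of the ubiquinone-binding module, measured 1347, 1284 and 1184 with MB1-47 and 1323, 1298 and 1307 with DMSO, an overlap with a change of -0.04 ± 0.11 (95% interval -0.28 to 0.20, adjusted p = 0.787). NDUFC1, a small membrane subunit, measured 565, 422 and 579 with MB1-47 and 812, 586 and 659 with DMSO, without overlap (-0.40 ± 0.18, adjusted p = 0.112).

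NDUFA9, a nucleotide-binding subunit at the joint of the arms, measured 1465, 1162 and 1031 normalized counts with MB1-47 and 1533, 1489 and 1591 with DMSO. Its own change did not pass (-0.35 ± 0.14, adjusted p = 0.0675; 0.0148 without MB1-47 replicate 1). A clone-named gene that overlaps it on the same strand, AC005833.1, measured 7.51, 0 and 0 normalized counts with MB1-47 and 429, 357 and 200.2 with DMSO. Another, AC005832.4, measured 294, 466 and 261 with MB1-47 and 487, 481 and 578 with DMSO. The authors' estimates may divide reads among such overlapping models, but shared sequence was not checked. With both clone-named genes added to NDUFA9, the sum averaged 1562 with MB1-47 and 2382 with DMSO. It passed as lower (-0.62 ± 0.12, adjusted p = 0.00239). AC005833.1 alone had a change of -7.27, and whether its reads belong to NDUFA9 was not tested. NDUFA7 passed once AC010323.1 was added (-0.77 ± 0.26, adjusted p = 0.0375), against -0.52 ± 0.28 (adjusted p = 0.170) alone. AC010323.1 measured 0, 9.65 and 0 normalized counts with MB1-47 and 37.7, 52.6 and 0 with DMSO, and did not pass itself.

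The other 4 accessory subunits that did not pass were NDUFV3, NDUFB1, NDUFS4 and NDUFA3. NDUFV3 came nearest (-0.66 ± 0.24, adjusted p = 0.0547) and passed without MB1-47 replicate 2 (0.0116) or DMSO replicate 1 (0.0250). NDUFS4, a subunit of the matrix arm whose loss is a known cause of Leigh syndrome, averaged 369 ± 17.3 normalized counts with MB1-47 and 288 ± 50.4 with DMSO (SD, n = 3), without overlap (0.37 ± 0.19, 95% interval -0.05 to 0.79, adjusted p = 0.157). NDUFA3 and NDUFB1 overlapped between the groups, with changes of 0.42 ± 0.38 and -0.19 ± 0.30. NDUFA3 had 101 ± 10.3 normalized counts with MB1-47 and 80.1 ± 36.0 with DMSO, and NDUFB1 changed sign without MB1-47 replicate 2 (0.04) or DMSO replicate 3 (0.03).

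Assembly factors fell in 6 of 8 cases, against 19.8% of all genes tested, with a median of -0.61. NDUFAF8 (chromosome 17 from 81239239 to 81241281) had the largest fall of all 46 genes, 3.53-fold. It measured 167, 240.2 and 210.5 normalized counts with MB1-47 and 713, 695 and 771 with DMSO (-1.83 ± 0.19, adjusted p = 2.37e-05). NDUFAF8 stabilizes NDUFAF5, which hydroxylates an arginine of NDUFS7, and NDUFAF5 fell as well. NDUFAF5 measured 751, 642 and 778 with MB1-47 and 1162, 1149.6 and 1263 with DMSO (-0.72 ± 0.13, adjusted p = 0.00110).

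NDUFAF3 and NDUFAF4 bind each other and accompany the early ubiquinone-binding module. NDUFAF3 measured 147, 237 and 193 normalized counts with MB1-47 and 431, 459.8 and 486 with DMSO (-1.28 ± 0.22, adjusted p = 0.000784). NDUFAF4 measured 878, 889 and 939.8 with MB1-47 and 1290.5, 1190.1 and 1277 with DMSO (-0.47 ± 0.11, adjusted p = 0.00698). Both fell without overlap between the groups. NDUFAF2, which holds the place of NDUFA12 in the growing complex, measured 185, 211 and 188 with MB1-47 and 337, 359 and 394 with DMSO (-0.90 ± 0.19, adjusted p = 0.00350). NDUFA12, its relative among the subunits, averaged 1818 ± 74.5 with MB1-47 and 3224 ± 518 with DMSO (SD, n = 3; -0.81 ± 0.12, adjusted p = 0.000402).

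Of the remaining assembly factors, NDUFAF6 fell and NDUFAF1 and NDUFAF7 did not pass. NDUFAF6 measured 547, 429 and 408 normalized counts with MB1-47 and 605, 605 and 747 with DMSO (-0.50 ± 0.17, adjusted p = 0.0385). It missed the threshold without MB1-47 replicate 2 (adjusted p = 0.0974), MB1-47 replicate 3 (0.124), DMSO replicate 2 (0.0561) or DMSO replicate 3 (0.144), with equal library totals (0.107) and without limma's trend (0.0654). NDUFAF1, of the membrane-arm assembly complex, measured 623, 446 and 492 with MB1-47 and 629, 677 and 599 with DMSO, an overlap that did not pass (-0.30 ± 0.16, 95% interval -0.66 to 0.06, adjusted p = 0.178). NDUFAF7, a methyltransferase that acts early in assembly, measured 658, 573 and 550.2 with MB1-47 and 483, 495 and 556 with DMSO. It overlapped between the groups (0.21 ± 0.15, 95% interval -0.12 to 0.55, adjusted p = 0.296).

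NDUFA4 fell, with 1039, 1055 and 756 normalized counts in the MB1-47 libraries and 1828, 1972 and 2402 in the DMSO libraries (-1.13 ± 0.16, adjusted p = 0.000207). NDUFA4L2, its paralog that responds to hypoxia, measured 68.6, 89.7 and 35.9 with MB1-47 and 53.4, 41.3 and 32.9 with DMSO, which overlapped (0.53 ± 0.46, 95% interval -0.49 to 1.54, adjusted p = 0.403).

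Setting the classes side by side, the median change was -0.32 for core subunits, -0.66 for accessory subunits and -0.61 for assembly factors. In the single MB1-47 libraries the core median was -0.35, -0.21 and -0.44 relative to the DMSO mean of each gene. The accessory median was -0.83, -0.64 and -0.84 there, and the assembly factor median -0.59, -0.69 and -0.64, so that in each MB1-47 library the core lay highest. The DMSO libraries lay between -0.08 and 0.10 for all 3 classes. These are descriptions of small gene groups, and the differences between classes were not tested. With trends on GC content and transcript length removed from each library, the core median was -0.17 with 1 fall, and the accessory median was -0.53.

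By place in the complex the median was -0.37 in the matrix arm, where 7 of 15 subunits fell. It was -0.64 in the proximal membrane arm, where 7 of 9 fell, and -0.85 in the distal membrane arm, where 9 of 11 fell. NDUFAB1 was left out of this split. Over all genes tested, 19.8% fell, with a median of 0.02. Within the matrix arm 4 of the 7 core genes fell. Its accessory genes NDUFS6, NDUFA12 and NDUFA2 fell, and NDUFA5, NDUFA7, NDUFA9, NDUFS4 and NDUFV3 did not pass, so the arm was not uniform. All nuclear core genes lie in this arm, so class and place are not separate contrasts. Within the distal arm NDUFB5 and NDUFB1 were the members that did not pass. With overlapping clone-named genes added, the median was -0.50 in the matrix arm and -0.65 in the distal arm. With GC and length trends removed, the medians were -0.31 and -0.58.

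**Figure D2:**
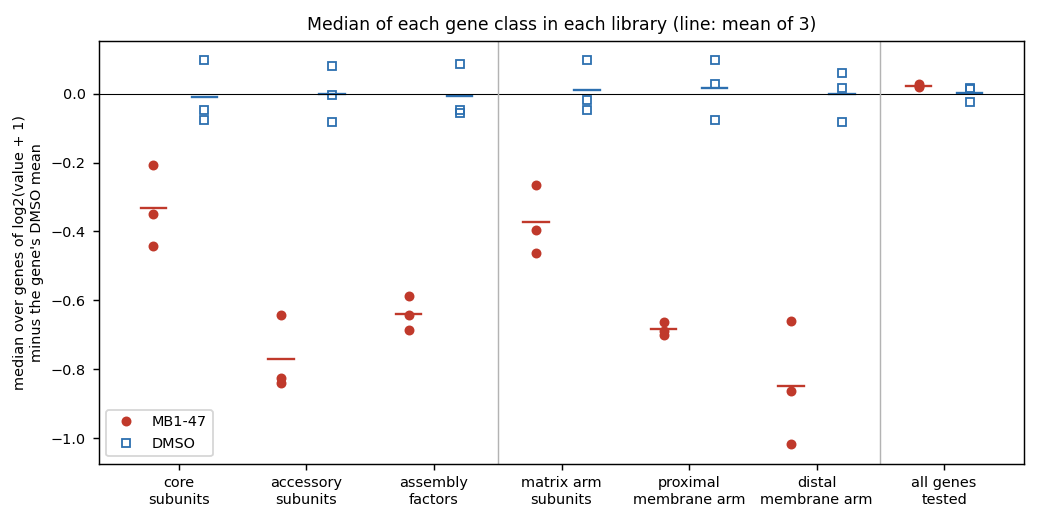
The y axis is the median, over the genes of a class, of log2(normalized count + 1) minus the gene's DMSO mean; filled circles are the 3 MB1-47 libraries, open squares the 3 DMSO libraries and short lines their means. All genes tested sit near 0 in both groups, the core and matrix arm medians sit between -0.21 and -0.46 with MB1-47, and the distal membrane arm between -0.66 and -1.02.

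Many complex I genes have short transcripts, and transcript length moved with the change across the whole table. The principal transcripts of the members had a median length of 977 bases, against 2827.5 bases over all genes tested. Among 715 protein-coding genes under 1000 bases, 35.1% fell and 4.48% rose, with a median of -0.37; among the 24 members under 1000 bases 75.0% fell, with a median of -0.79. Among the 22 members of 1000 bases or more, 59.1% fell, with a median of -0.46, against 19.5% and 0.04 over all genes of that length. Across genes, Spearman's rho of length with change was 0.14 over all genes and 0.35 over the 46 members, a description of points that share libraries. With GC and length trends removed, 27 members fell in place of 31. The part of length in the members' falls was not tested beyond that removal.

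**Figure D3:**
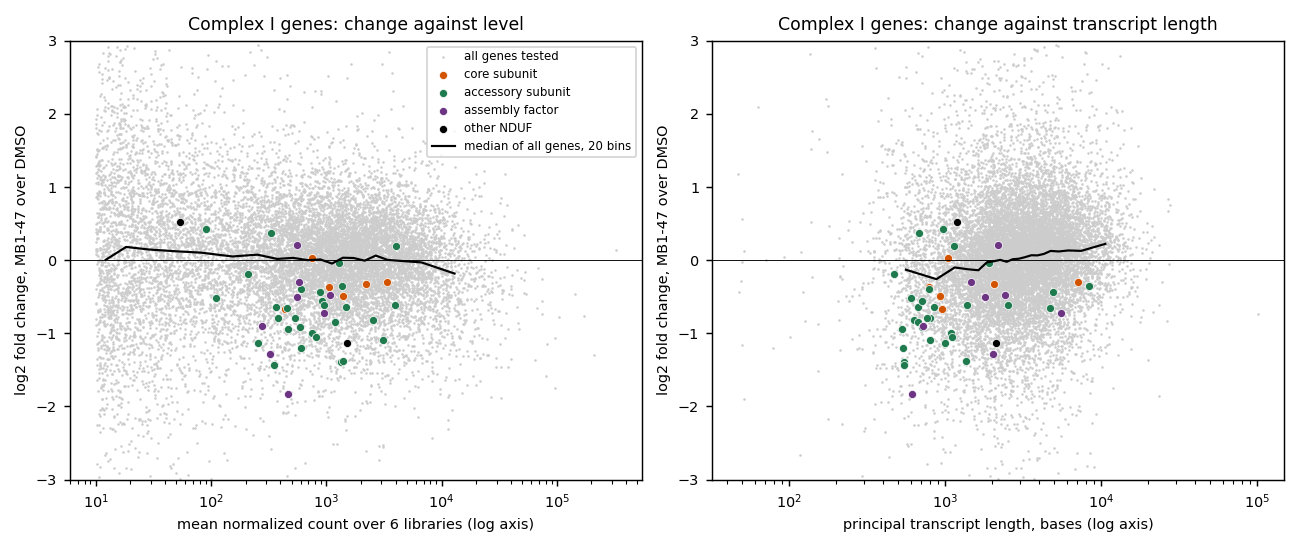
Both panels plot the log2 fold change of MB1-47 over DMSO for all genes tested (grey; values beyond 3 in either direction are not drawn) and for complex I genes (coloured by class), against the mean normalized count on the left and the principal transcript length on the right, both on log axes; the black line is the median of all genes in 20 bins. The line lies near 0 at all levels, is below 0 for short transcripts, and most complex I genes lie below it.

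All 7 mitochondrially encoded core subunits fell, against 19.8% of all genes tested. Their changes were -1.82 for MT-ND6, -1.48 for MT-ND5, -1.46 for MT-ND2, -1.29 for MT-ND1, -1.26 for MT-ND3, -0.59 for MT-ND4L and -0.53 for MT-ND4. Their sum took 0.253% ± 0.0198 of all normalized counts with MB1-47 and 0.494% ± 0.0321 with DMSO (SD, n = 3). The sum of the 7 nuclear core genes took 0.0352% ± 0.00424 with MB1-47 and 0.0379% ± 0.00219 with DMSO. For the 29 accessory genes it was 0.0844% ± 0.00265 with MB1-47 and 0.120% ± 0.00583 with DMSO. These shares divide by each library's total, as the scaling to equal totals does, and the totals were higher with DMSO. On that scale the nuclear core sums overlapped, at 0.0324% to 0.0401% with MB1-47 and 0.0354% to 0.0396% with DMSO. They are not on the scale of the changes given for single genes.

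Among 11 assembly factors outside the NDUF names, 2 fell and 9 missed the threshold, a share near the 19.8% of all genes tested, and the median was -0.25. ECSIT came nearest to a rise (0.49 ± 0.18, adjusted p = 0.0501). ACAD9, which works with NDUFAF1 and ECSIT, measured 472, 586 and 464 normalized counts with MB1-47 and 1240.1, 1225 and 1046 with DMSO (-1.21 ± 0.15, adjusted p = 8.42e-05). COA1 measured 1164, 1138 and 1385 with MB1-47 and 1962, 2123 and 2293 with DMSO (-0.79 ± 0.12, adjusted p = 0.000340). Both fell without overlap.

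Of 9 tested enzymes that bring electrons to ubiquinone by other routes, 3 fell and 6 missed the threshold. The shares over all genes tested were 19.8% lower and 18.3% higher. DHODH, which couples pyrimidine synthesis to the ubiquinone pool, measured 674, 658 and 520.3 normalized counts with MB1-47 and 1280.0, 1655 and 1682 with DMSO (-1.31 ± 0.16, adjusted p = 6.83e-05). The complex II subunit SDHC measured 2229, 2226 and 2393 with MB1-47 and 3876, 3516 and 3472 with DMSO (-0.66 ± 0.09). SDHB of the same complex measured 4874, 3853 and 4520 with MB1-47 and 7585, 5409 and 6814 with DMSO (-0.57 ± 0.13). None of the 3 overlapped between the groups, and 25.2% of all genes lay below DMSO without overlap. Of 3 supercomplex factors, COX7A2L, which links complexes III and IV, rose and HIGD1A fell. COX7A2L measured 11688, 8527 and 12270.0 with MB1-47 and 8144, 6068 and 5839 with DMSO (0.69 ± 0.15, adjusted p = 0.00432), and HIGD1A 1943, 1826 and 1755 with MB1-47 and 3085.5, 2850.5 and 2959 with DMSO (-0.69 ± 0.09, adjusted p = 0.000193). Without limma's trend COX7A2L and SDHB missed the threshold, with adjusted p-values of 0.0534 and 0.0518.

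Of 8 tested nuclear regulators of respiratory genes, 4 fell and 1 rose, against 19.8% and 18.3% of all genes tested. PPRC1, PPARGC1B, TFAM and GABPB1 fell, GABPA rose and NRF1, YY1 and ESRRA did not pass. PPRC1, a coactivator of the PGC-1 family, measured 976, 1208 and 1453 normalized counts with MB1-47 and 2601, 3686 and 3398 with DMSO (-1.42 ± 0.17, adjusted p = 6.23e-05). PPARGC1B, of the same family, measured 835, 799 and 745 with MB1-47 and 1808.5, 1965 and 1675 with DMSO (-1.19 ± 0.12, adjusted p = 1.89e-05). TFAM, which packages mitochondrial DNA, measured 4107, 3509 and 3890.0 with MB1-47 and 7526, 5990.1 and 6978.5 with DMSO (-0.83 ± 0.10). All 3 lay below DMSO without overlap, as did 25.2% of all genes. NRF1, a transcription factor with sites in many respiratory promoters, averaged 1376 with MB1-47 and 1305 with DMSO (0.07 ± 0.12, adjusted p = 0.659). The rise of GABPA, the DNA-binding partner of GABPB1, was 0.26 ± 0.09 (adjusted p = 0.0460) and passed in 10 of 18 settings. It missed with no filter on low values (0.0566), without limma's trend (0.104), and without MB1-47 replicate 1 (0.130) or 3 (0.146) and without DMSO replicate 1 (0.0563), 2 (0.131) or 3 (0.0864). With GC and length trends removed the change was 0.00011 and did not pass.

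The promoters of members were searched for the sites of these regulators, in RefSeq windows of 300 bases from 250 before to 50 after each start (GRCh38.p14). Windows were found for 38 of the 46 members; those of NDUFA4, NDUFA4L2, NDUFAF6, NDUFB5, NDUFB9, NDUFC2 and NDUFS5, among others, were not used here. Motifs were matched on both strands, and matches may overlap. The 38 members had 50 windows, and a motif in any window of a gene counted. The NRF1 core motif CGCANGCG was in 12 of 38 members (31.6%), against 12.0% of 27305 genes with a window. The YY1 motif AAGATGGC was in 18.4% of members, against 3.52%, and the ETS motif CCGGAAG, which GABPA can bind, in 18.4%, against 12.2%. The E-box CACGTG was in 10.5%, against 8.77%, and the SP motif GGGCGG in 63.2%, against 48.3%. The comparison was with every gene that had a window, not only with the genes tested here. These shares are descriptions of letters and not of binding.

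Promoters are shown for 4 members that fell, 3 with ETS letters and NDUFA11 with NRF1 and E-box letters, and for NDUFA3, which holds NRF1 and YY1 letters and did not pass. Each sequence runs from 150 bases before to 30 bases after the start, on the gene's strand, and capitals mark NRF1, YY1, ETS and E-box letters, while SP letters are not marked. Positions are counted from the start, with negative numbers before it. For NDUFAF8 only a window with ETS letters at -2 was kept.
NDUFAF8, chr17:81239161-81239340, plus strand, ETS at -2 and YY1 at 17: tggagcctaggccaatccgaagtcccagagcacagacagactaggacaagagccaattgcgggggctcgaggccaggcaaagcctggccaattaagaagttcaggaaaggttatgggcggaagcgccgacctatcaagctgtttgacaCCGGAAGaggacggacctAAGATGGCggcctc
NDUFA13, chr19:19516075-19516254, plus strand, ETS at -10: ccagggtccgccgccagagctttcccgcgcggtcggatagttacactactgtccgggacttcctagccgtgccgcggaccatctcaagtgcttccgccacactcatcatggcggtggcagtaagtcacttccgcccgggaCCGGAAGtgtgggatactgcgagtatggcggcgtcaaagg
NDUFB7, chr19:14572037-14572216, minus strand, ETS at -24: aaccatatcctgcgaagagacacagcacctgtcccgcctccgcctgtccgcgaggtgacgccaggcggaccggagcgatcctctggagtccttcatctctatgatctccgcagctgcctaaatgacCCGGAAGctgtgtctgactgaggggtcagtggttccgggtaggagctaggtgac
NDUFA11, chr19:5903761-5903940, minus strand, E-box at -132 and NRF1 at -97: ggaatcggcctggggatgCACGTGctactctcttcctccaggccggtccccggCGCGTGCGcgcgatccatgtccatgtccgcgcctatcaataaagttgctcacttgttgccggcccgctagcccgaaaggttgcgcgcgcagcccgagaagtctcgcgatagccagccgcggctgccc
NDUFA3, chr19:54102705-54102884, plus strand, NRF1 at -72 and YY1 at 22: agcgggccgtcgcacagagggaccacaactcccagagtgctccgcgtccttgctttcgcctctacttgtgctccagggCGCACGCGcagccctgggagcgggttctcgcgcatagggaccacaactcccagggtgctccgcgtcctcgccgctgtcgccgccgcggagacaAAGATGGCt
All 7 members with ETS letters fell (NDUFA1, NDUFA13, NDUFAF4, NDUFAF8, NDUFB7, NDUFS1 and NDUFS3), as did 26 of the 38 members with a window. Of the 12 with NRF1 letters, 7 fell, and of the 7 with YY1 letters, 2 fell (NDUFAF8 and NDUFB8). With so few genes and no test, these counts describe the members only.

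**Figure D4:**
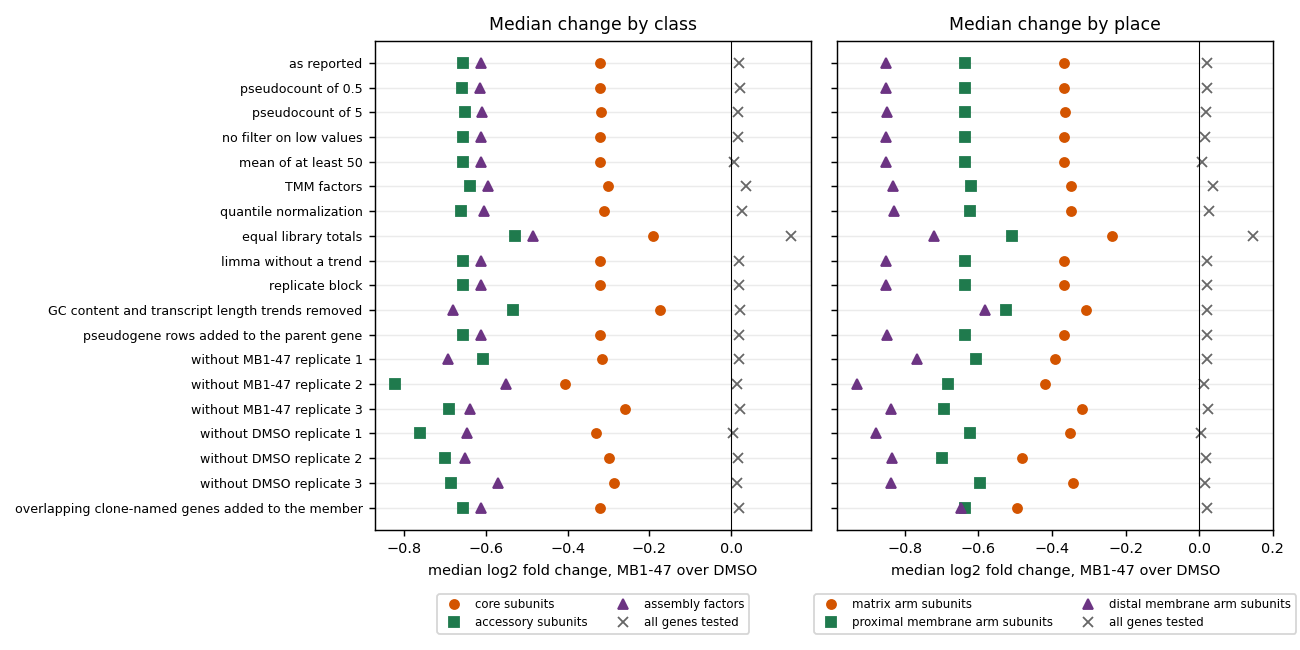
Each row is a processing setting, the x axis is the median log2 fold change of MB1-47 over DMSO, and symbols are gene classes on the left and places in the complex on the right, with all genes tested as crosses. Among the gene classes the core median, and among the places the matrix arm median, is nearest to 0 in every setting drawn, and the distal membrane arm is lowest in every setting, by the smallest margin with overlapping clone-named genes added.

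Near-identical copies can share reads with their parent genes. Of 5 processed pseudogenes of NDUF genes in the table, NDUFV2P1 was the only one that averaged at least 10 normalized counts, at 84.9 with MB1-47 and 133 with DMSO, and it did not pass (-0.62 ± 0.33, adjusted p = 0.163). With pseudogene values added to their parents, 31 members again fell.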

How the data were processed

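The authors deposited a single table of normalized counts (signal values) for the 6 libraries. Per the submitters' processing notes it was made with kallisto 0.44.0 and DESeq on GRCh38.p13, and per the labels the libraries were strand-specific. Whether strand was used in counting is not given in the sources used here. Sequencing depth is unknown: low values lay within 0.1 of a multiple of a single step in only 59.0% to 64.4% of cases, so whole reads were not recovered and no count test was run.

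Genes with a mean of at least 10 were tested on log2(value + 1) with limma 3.58.1 (R 4.3.3), with an intensity trend and without a replicate block, two-sided, with Benjamini-Hochberg adjustment over 13465 genes and a threshold of 0.05. The procedure was tested on simulated data. Members, classes, lists and motifs were chosen with earlier results of these data known. Gene coordinates and transcript lengths are those of GENCODE 29 (GRCh38), and lengths are of the principal transcript.

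Named with values in each library were the core subunits and assembly factors (1 member is counted in all sums and medians and is not reported singly here). So were the 8 largest accessory falls, the 4 accessory subunits of highest mean that did not pass, and up to 3 genes a list. NDUFV3, NDUFS4, NDUFA3, NDUFB1, NDUFA7, NDUFA12, NDUFA10, NDUFB4, NDUFB11, NDUFB10 and NDUFB8 were named after their values were seen. The same holds for YJEFN3, PTPMT1, ADCK2, CD79A, PTPRC, GABPA, ECSIT and NRF1. The alternatives were another pseudocount, filter, scaling, trend, block, or treatment of pseudogenes, removal of GC and length trends, and leaving out each library. Adding overlapping genes was chosen after seeing the data, as was the NRF1 core motif, which replaced a longer form of the same site searched first.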

Additional observations from a re-analysis of the deposited data

How the results depend on the processing

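Of the 31 members that fell, 22 passed in all 18 alternative settings, 9 lost the call in at least 1, and none changed sign. The members that fell numbered 24 to 33 across settings. With equal library totals, 1 core subunit fell and 1 member, the accessory subunit NDUFB5, rose; the medians were -0.50 for members, -0.19 for core, -0.53 for accessory, -0.48 for assembly factors, -0.24 for the matrix arm and -0.51 for the proximal arm, and NDUFA5 changed sign to 0.085. Without limma's trend, 2 core subunits fell. With GC and length trends removed, 1 core subunit fell and 1 rose. The medians were then -0.51 for members, -0.17 for core, -0.53 for accessory, -0.68 for assembly factors, -0.53 for the proximal arm and -0.58 for the distal arm, and NDUFB1 stood at 0.0024. With overlapping clone-named genes added, the matrix arm median was -0.50 and the distal arm median -0.65. With each library left out in turn, 1 to 4 core subunits fell and 0 to 1 members (accessory) rose; medians ran from -0.82 to -0.61 for accessory subunits, -0.69 to -0.55 for assembly factors and -0.48 to -0.32 for the matrix arm. Over the same fits NDUFS7 ranged from -0.084 to 0.19, NDUFA5 from -0.0862 to 0.0069 and NDUFB1 from -0.41 to 0.043. The replicate numbers were not taken as a pairing of the libraries. Same-numbered libraries deviated together with correlations of 0.02, 0.06 and 0.01. MB1-47 replicates 1 and 2 correlated best with the same-numbered DMSO library, and MB1-47 replicate 3 with DMSO replicate 1 (0.03). Values this small, from 3 libraries a group, cannot settle whether the libraries were paired. With a replicate block 31 members fell, NDUFV3 was gained and NDUFAF6 lost. The cause of these shifts was not tested. Depth is unknown, so precision rests on 3 libraries a group.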
